A study of Mus musculus with 24 samples.

Results

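The Wnt ligands, their receptors, co-receptors, antagonists and nearest intracellular partners were followed across the developing mouse lens. The members were chosen by gene symbol alone (Wnt, Fzd, Sfrp, Dkk, Rspo, Vangl and Tcf7 symbols, and Nkd1, Nkd2, Axin1, Axin2, Lrp5, Lrp6, Ror1, Ror2, Lef1, Dvl1, Dvl2, Dvl3, Ctnnb1, Lgr4, Wif1, Apcdd1 and Znrf3), which took 44 of the 12611 genes of the count table. They comprise 7 ligands, 13 Frizzled receptors and co-receptors, 7 secreted or surface antagonists, Rspo1 with its receptor gene Lgr4 and Znrf3, 8 cytoplasmic transducers and inhibitors, 4 TCF/LEF transcription factors and 2 planar polarity genes. Lenses of CD1 mice, an outbred albino stock, were microdissected into lens fiber cells, the elongating crystallin-rich cells of the lens mass, and lens epithelium, the dividing anterior layer from which fibers arise. Stranded total RNA libraries depleted of ribosomal RNA were sequenced from fiber and from epithelium from embryos at E14.5, at E16.5 and at E18.5 (E being days of gestation) and from newborn mice at P0.5 (days after birth), with 3 biological replicates for each of the 8 groups, 24 libraries in all. No treatment or engineered allele is named for any group. Whether a replicate pooled several animals is not stated, so p-values measure the spread between these samples only. In dissected tissue, fewer cells of a type and less RNA per cell cannot be told apart.

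Wnt proteins are lipid-modified signals that bind Frizzled receptors together with the co-receptors Lrp5 and Lrp6, which stabilises beta-catenin (Ctnnb1) so that it can join TCF/LEF factors on target genes. Axin2, Nkd1, Apcdd1, Znrf3 and Lef1 are commonly both components and transcriptional targets of that branch, while Wnt5a, Ror1, Ror2 and the Vangl proteins belong mainly to branches that work without beta-catenin and orient cells in a plane. In the lens, beta-catenin signalling is known from the anterior epithelium, and planar polarity genes are known for the alignment of fiber cells.

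The starts of 5 genes are shown. Wnt7a and Rspo1 had the largest differences towards fiber, and Axin2 is a standard target gene of the beta-catenin branch. Wnt5b and Dkk1 were the 2 of 30 matched members whose start region held TCF/LEF letters. Each sequence is the stretch from 250 bases before to 50 bases after an annotated start, 300 bases, 5′ to 3′ on the gene's strand, from RefSeq on GRCm38.p6. Capitals mark CTTTGAA or CTTTGAT, the core letters of a TCF/LEF site, searched on both strands. The Wnt7a start lies at chr6:91411304-91411603 on the minus strand, the Rspo1 start at chr4:124986180-124986479 on the plus strand, the Wnt5b start with a match (the third of its annotated starts) at chr6:119449337-119449636 on the minus strand, the Dkk1 start at chr19:30549447-30549746 on the minus strand and the Axin2 start at chr11:108920099-108920398 on the plus strand.
Wnt7a: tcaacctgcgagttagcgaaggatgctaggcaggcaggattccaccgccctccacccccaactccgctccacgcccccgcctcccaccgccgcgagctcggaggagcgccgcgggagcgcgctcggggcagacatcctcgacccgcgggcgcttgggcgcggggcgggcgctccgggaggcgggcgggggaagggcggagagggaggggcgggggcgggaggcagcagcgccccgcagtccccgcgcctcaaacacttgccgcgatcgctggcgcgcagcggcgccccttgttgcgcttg
Rspo1: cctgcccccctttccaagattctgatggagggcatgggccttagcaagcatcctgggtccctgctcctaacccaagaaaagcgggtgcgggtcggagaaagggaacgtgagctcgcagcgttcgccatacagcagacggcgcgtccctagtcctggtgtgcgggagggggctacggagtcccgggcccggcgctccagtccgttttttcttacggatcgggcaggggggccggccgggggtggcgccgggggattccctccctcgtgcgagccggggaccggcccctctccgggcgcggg
Wnt5b: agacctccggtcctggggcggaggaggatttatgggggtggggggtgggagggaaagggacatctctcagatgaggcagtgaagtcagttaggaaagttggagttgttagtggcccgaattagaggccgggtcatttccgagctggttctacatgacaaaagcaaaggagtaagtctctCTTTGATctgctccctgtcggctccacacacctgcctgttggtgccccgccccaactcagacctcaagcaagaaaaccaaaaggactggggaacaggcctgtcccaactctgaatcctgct
Dkk1: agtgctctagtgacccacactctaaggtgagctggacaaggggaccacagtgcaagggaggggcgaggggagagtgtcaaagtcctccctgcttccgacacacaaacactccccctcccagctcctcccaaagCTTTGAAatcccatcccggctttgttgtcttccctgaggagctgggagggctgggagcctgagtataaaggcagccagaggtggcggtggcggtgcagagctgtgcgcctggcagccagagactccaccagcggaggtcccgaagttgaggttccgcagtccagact
Axin2: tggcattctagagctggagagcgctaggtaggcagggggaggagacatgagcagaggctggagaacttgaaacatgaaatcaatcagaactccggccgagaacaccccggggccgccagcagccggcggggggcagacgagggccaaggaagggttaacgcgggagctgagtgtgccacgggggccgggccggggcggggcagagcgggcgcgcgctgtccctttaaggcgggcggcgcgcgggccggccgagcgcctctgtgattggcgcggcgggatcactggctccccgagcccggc
The letters were present in at least 1 start region of 2 of 30 member genes (6.67%) and of 6.96% of the 9627 matched genes of the count table. By start region they were in 2 of 38 among members, in 5.82% of the 12344 regions of genes in the table and in 8.65% of all 32851 regions. The 38 start regions of members had a median GC content of 67.3%, and those of genes in the table one of 61%. A match is a stretch of letters, not a site shown to be bound, and the regulatory elements of these genes may lie elsewhere.

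Total counts were 13010174 to 21617737 in fiber libraries and 7658794 to 11819117 in epithelium libraries, and levels below are CPM, counts divided by the scaled library total. The dissection labels were checked against markers: all 10 lens fiber markers were higher in fiber and all 5 lens epithelium markers (Pax6, Foxe3, Cdh1, Gja1 and Pdgfra) were lower, their sum being 182 to 359.7 CPM in fiber against 1849 to 2517 CPM in epithelium. Most markers of cells around the lens were also lower in fiber. The 10 endothelium markers summed to 11.6 to 39.3 CPM in fiber and 266 to 526 CPM in epithelium, and the 7 mural cell markers to 27.5 to 57.1 CPM in fiber and 258 to 499 CPM in epithelium; all 17 were lower in fiber, and Higd1b alone was at 0, in E14.5 and E16.5 fiber. Of 8 macrophage markers 7 were lower in fiber (1.30 to 4.71 CPM in fiber against 13.2 to 31.0 CPM in epithelium), of 7 mesenchyme markers 5 (11.9 to 20.4 CPM in fiber against 25.4 to 165 CPM in epithelium, Lum among them being at 0 in P0.5 fiber) and of 4 red cell markers 3 (0.315 to 35.6 CPM in fiber against 2.54 to 286 CPM in epithelium). Of 9 retina markers 8 were lower and 1 higher in fiber, summing to 9.24 to 13.3 CPM in fiber against 16.4 to 228 CPM in epithelium. Of 8 pigment cell markers 7 were lower (Mlana being at 0 in E14.5 and E16.5 fiber) and 1 higher. Their sum was 88.0 to 114 CPM in fiber, above the 37.2 to 45.3 CPM in epithelium of the first 2 stages and below the 133 to 268 CPM in epithelium of the last 2. Of 2 cornea markers 1 was lower. The part of these cells in the tissue differences given below was not tested. The 6 ciliary margin markers (Otx1, Msx1, Optc, Zic1, Zic2 and Zic4), genes of the neural rim beside the lens, summed to 3.04 to 11.97 CPM in fiber, 9.18 to 58.3 CPM in epithelium of the first 2 stages and 338 to 541 CPM in epithelium of the last 2.

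Fiber against epithelium asks which parts of the pathway accompany fiber differentiation. A member passed when edgeR's quasi-likelihood test gave an adjusted p under 0.05 over all 12427 genes tested and the difference was at least 2-fold; all 44 members passed the filter on low counts. Averaged over 4 stages, 7 members were higher in fiber, against 15.7% of all genes tested, and 25 were lower, against 22.2% of all genes. The remaining 12 did not pass. Numbers that stand alone in parentheses after a gene are its log2 difference in the comparison described. The median log2 difference was -1.52 over the members and -0.03 over all genes. The higher members were 3 ligands (Wnt7a, Wnt7b and Wnt5b), the antagonist genes Dkk3 and Sfrp1, Rspo1 and Vangl1. The lower ones included 9 of 13 receptors and co-receptors, 5 of 7 antagonists and 3 of 4 TCF/LEF factors. At single stages, 8 members were higher and 22 lower at E14.5 (14% and 19.4% of all genes), 7 and 23 at E16.5 (14.6% and 20.4%), 6 and 25 at E18.5 (17.4% and 24.2%), and 6 and 24 at P0.5 (17.5% and 24.5%). At all 4 stages, 6 members (13.6%, against 10.4% of all genes) were higher and 21 (47.7%, against 16.3%) were lower, and no member was higher at one stage and lower at another.

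These directions rest on trimmed mean scaling (TMM), which takes most genes as equal between tissues. Crystallin genes took 23.3% to 43.9% of the counts in fiber libraries and 1.66% to 4.29% in epithelium libraries. Scaled by library size only, the median of all genes moved to -1.23 and the count of members higher in fiber to 3, those being Rspo1 (3.57), Wnt7a (2.57) and Dkk3 (1.55). Under that scaling Wnt7b (0.42), Sfrp1 (0.30) and Wnt5b (0.26) kept a positive sign but did not pass, and Vangl1 reversed to -0.17. The lower members then numbered 32, with Lgr4, Nkd1, Dvl1, Dvl3, Fzd5, Fzd6 and Lrp6 added. Of all 12427 genes tested, 587 were higher and 7423 lower under that scaling. At single stages that scaling gave 4 higher and 23 lower members for E14.5, 3 and 28 for E16.5, 3 and 36 for E18.5, and 3 and 35 for P0.5. Of all 12427 genes it gave 751 higher and 5147 lower for E14.5 and 632 and 6733 for E16.5. For E18.5 it gave 537 and 8557, and for P0.5 526 and 8439. The tissue difference was also averaged over E14.5 and E16.5 only, with all 24 libraries kept in the fit. That choice was made after seeing the data, because ciliary margin markers stood high in later epithelium. With TMM scaling it gave 7 higher and 23 lower members, and Wnt16 (-0.88) and Wnt2b (-0.91) no longer passed. At those stages singly, 14% and 14.6% of all genes were higher and 19.4% and 20.4% lower.

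**Figure D1:**
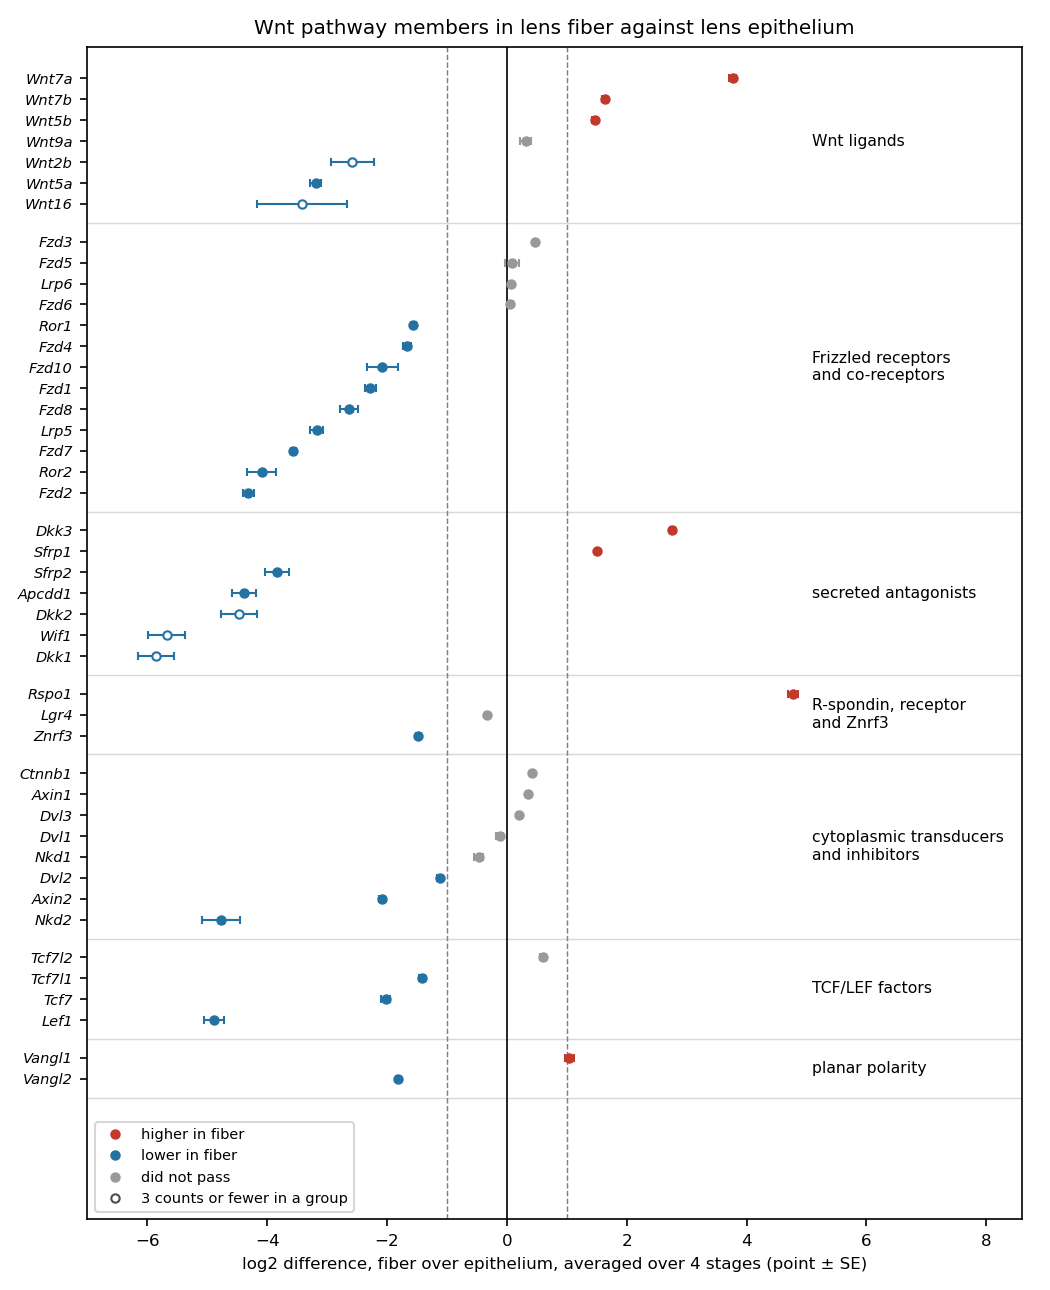
The log2 difference of each of the 44 members, fiber over epithelium averaged over 4 stages, is plotted along the horizontal axis with its SE, grouped by role; dashed lines mark 2-fold, and open points mark the 5 members with 3 or fewer counts in at least 1 of the 8 groups. Rspo1, Wnt7a, Dkk3, Wnt7b, Sfrp1, Wnt5b and Vangl1 lie to the right at 1.04 to 4.77 under TMM scaling (with library size only, Wnt7b, Sfrp1 and Wnt5b no longer pass and Vangl1 changes sign), and 25 members lie to the left of the 2-fold line.

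Among the ligands, Wnt7a, which acts through either branch depending on the receptor, showed the widest separation towards fiber. It had 61.9, 76.7 and 67.9 CPM in E14.5 fiber, 110.4, 123.5 and 121 in E16.5 fiber, 175, 177 and 176 in E18.5 fiber and 199.5, 185 and 206 in P0.5 fiber. In the epithelium it had 6.09, 6.004 and 9.24 CPM in E14.5 epithelium, 8.84, 9.26 and 8.10 in E16.5 epithelium, 9.44, 11.5 and 9.62 in E18.5 epithelium and 10.8, 12.9 and 13.8 in P0.5 epithelium. All 12 fiber libraries lay above all 12 epithelium libraries (log2 3.77 ± 0.06 SE, edgeR adjusted p = 1.69e-25). The epithelium level was 5.79% to 10.3% of the fiber level by stage, against 1.57% to 2.83% for the fiber channel gene Mip. Wnt7b, a close relative of Wnt7a, was the most abundant ligand per kilobase of transcript in both tissues at every stage, at 183 CPM per kb in P0.5 fiber and 45.2 CPM per kb in P0.5 epithelium. Wnt7b ranged over 363 to 940.4, median 729 CPM in fiber and 147 to 265, median 222 CPM in epithelium, without overlap (log2 1.63 ± 0.04 SE, edgeR adjusted p = 1.38e-21; 0.42 with library size only, no longer passing).

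Wnt5b and Wnt5a, close relatives that signal mainly without beta-catenin, stood in opposite order in the tissues. Wnt5b ranged over 74.1 to 95.1, median 81.3 CPM in fiber and 20.8 to 42.5, median 29.4 CPM in epithelium (log2 1.46 ± 0.04 SE, edgeR adjusted p = 1.49e-20; 0.26 with library size only, no longer passing). At P0.5 alone its difference was 1.04, and 0.99 without P0.5 epithelium replicate 2, just under 2-fold. Wnt5a had 1.72, 2.15 and 1.60 CPM in E14.5 fiber, 1.49, 1.91 and 2.43 in E16.5 fiber, 2.42, 1.73 and 2.84 in E18.5 fiber and 1.52, 2.63 and 1.99 in P0.5 fiber, against 15.4, 14.0 and 12.3 CPM in E14.5 epithelium, 13.02, 15.3 and 14.55 in E16.5 epithelium, 24.1, 23.1 and 33.4 in E18.5 epithelium and 26.2, 23.2 and 22.5 in P0.5 epithelium, so that every fiber library lay below every epithelium library (log2 -3.19 ± 0.10 SE, edgeR adjusted p = 6.65e-20). Per kilobase, Wnt5b exceeded Wnt5a in every group, at 29.6 and 0.262 CPM per kb in P0.5 fiber and 14.4 and 3.06 CPM per kb in P0.5 epithelium. Wnt9a did not pass (0.31; 3.45 to 6.40 CPM in fiber and 2.10 to 5.68 CPM in epithelium). Wnt16 and Wnt2b were nearly absent from fiber and from E14.5 and E16.5 epithelium and appeared in E18.5 and P0.5 epithelium, as described with the stages below.

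**Figure D2:**
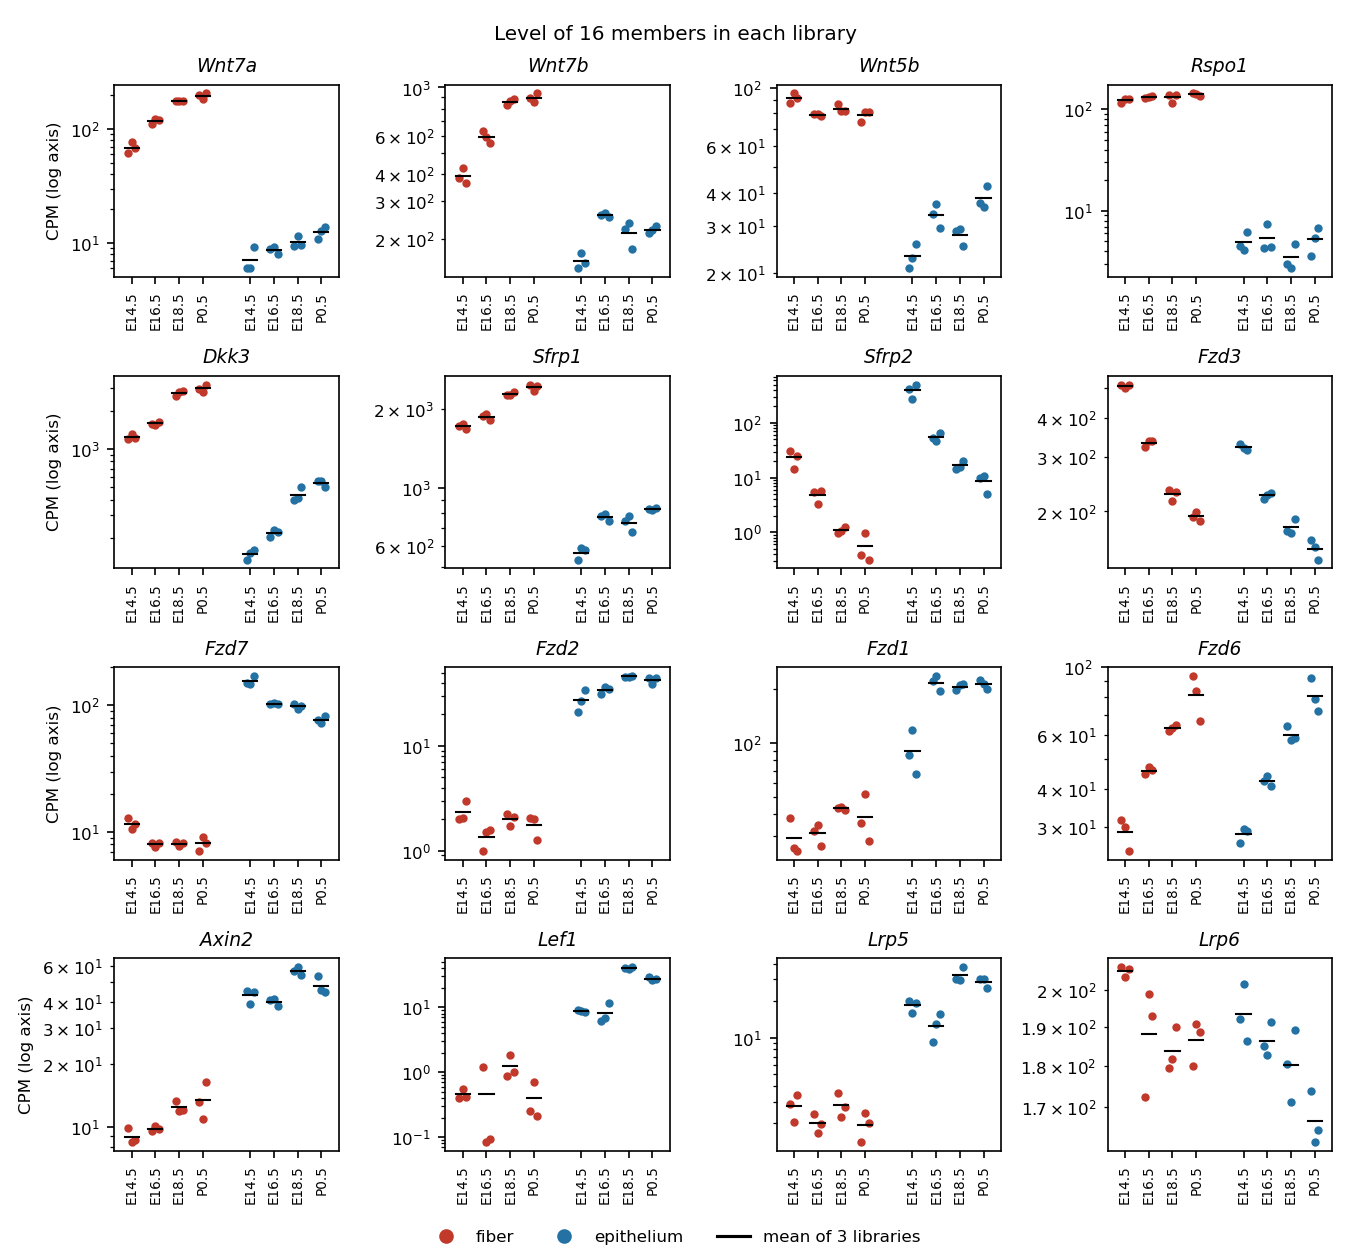
Each panel plots 1 of 16 members, with CPM on a log axis against stage, fiber (red) left of epithelium (blue); points are single libraries and bars the mean of 3. Wnt7a, Rspo1 and Dkk3 stand apart towards fiber, Fzd7, Fzd2, Lef1 and Lrp5 towards epithelium, and Fzd6 and Lrp6 lie at like levels in both; Wnt7b, Wnt5b and Sfrp1 are higher in fiber with TMM scaling but no longer pass with library size only.

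Of the 9 Frizzled genes, 6 were lower in fiber on average, against 22.2% of all genes, and 3 did not pass. With library size only 12 of the 13 receptors and co-receptors were lower, against 7423 of all 12427 genes. Fzd7, a receptor much used for the beta-catenin branch, had 12.99, 10.6 and 11.5 CPM in E14.5 fiber, 8.23, 7.65 and 8.22 in E16.5 fiber, 8.29, 7.71 and 8.14 in E18.5 fiber and 7.09, 9.10 and 8.19 in P0.5 fiber. In epithelium it had 150.5, 147 and 171 CPM in E14.5 epithelium, 102, 105 and 103 in E16.5 epithelium, 102, 94.0 and 99.2 in E18.5 epithelium and 77.0, 71.9 and 82.0 in P0.5 epithelium, above every fiber library (log2 -3.56 ± 0.04 SE, edgeR adjusted p = 3.27e-27). Fzd2, a receptor for Wnt5a among others, had 1.99, 2.06 and 2.95 CPM in E14.5 fiber, 0.992, 1.496 and 1.59 in E16.5 fiber, 2.24, 1.73 and 2.07 in E18.5 fiber and 2.03, 1.99 and 1.26 in P0.5 fiber. Its epithelium values were 21.1, 26.8 and 34.3 CPM in E14.5 epithelium, 31.6, 36.4 and 34.7 in E16.5 epithelium, 45.8, 45.5 and 46.6 in E18.5 epithelium and 44.6, 39.3 and 44.2 in P0.5 epithelium, again without overlap (log2 -4.32 ± 0.09 SE, edgeR adjusted p = 6.89e-23). Fzd1 was lower by 4.84-fold (-2.28), Fzd4, the norrin receptor, by 3.18-fold (-1.67), and Fzd8 (-2.64) and Fzd10 (-2.08) were lower at low levels.

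Fzd3, known for planar polarity and axon guidance, and Fzd6, its partner in hair and skin polarity, did not pass. Fzd3 ranged over 186 to 511, median 278 CPM in fiber and 140.1 to 329.9, median 204 CPM in epithelium (0.48), and Fzd6 over 25.1 to 93.8, median 54.6 CPM in fiber and 26.8 to 92.0, median 51.0 CPM in epithelium (0.05). Fzd5 passed at E14.5 and at no other stage (log2 1.07 ± 0.25 SE, edgeR adjusted p = 0.000488), with 18.2, 17.5 and 17.9 CPM in E14.5 fiber and 6.81, 9.39 and 9.06 CPM in E14.5 epithelium, and did not pass without E14.5 epithelium replicate 1 (0.95). At P0.5 it averaged 16.4 CPM in fiber and 26.4 CPM in epithelium, and its difference was -0.69.

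Shares within the family do not depend on how libraries are scaled, and they showed a different Frizzled make-up in the tissues. Of the summed Frizzled level per kilobase, Fzd3 made up 66.8% ± 2.84 in E14.5 fiber and 25.3% ± 1.55 in E14.5 epithelium (SD, n = 3 each). At P0.5 its share was 32.5% ± 3.11 in fiber and 10.3% ± 0.322 in epithelium. Fzd6 made up 10.1% ± 0.976 in E14.5 fiber and 36.0% ± 3.42 in P0.5 fiber, its epithelium share being 5.96% ± 0.156 at E14.5 and 14.4% ± 1.09 at P0.5. In epithelium Fzd7 and Fzd3 led at E14.5, and Fzd1 and Fzd7 at E16.5 and E18.5. At P0.5 Fzd1 led, while Fzd7 (14.7% ± 1.43) and Fzd6 (14.4% ± 1.09) had like shares. Fzd1 made up 21.5% ± 5.48 in epithelium at E14.5, 45.2% ± 2.73 at E16.5 and 43.8% ± 0.608 at P0.5, and Fzd7 34.7% ± 3.47 at E14.5. In fiber Fzd7 made up 4.34% ± 0.261 at E14.5 and 3.87% ± 0.638 at P0.5.

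**Figure D3:**
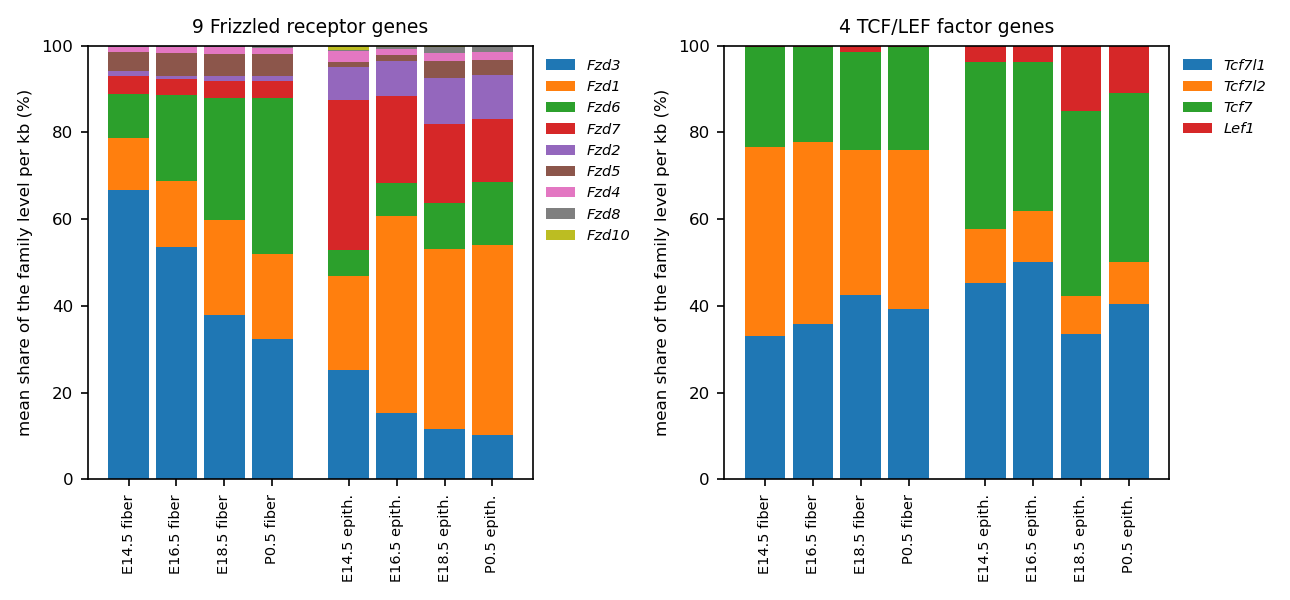
Stacked bars give the mean share (%) of each gene in the summed level per kilobase of 9 Frizzled genes (left) and 4 TCF/LEF genes (right), in fiber and then epithelium at 4 stages, 3 libraries each. Fzd3 fills 66.8% of the Frizzled level in E14.5 fiber and 25.3% in E14.5 epithelium, and Tcf7l2 43.7% of the TCF/LEF level in E14.5 fiber and 12.5% in E14.5 epithelium.

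The co-receptors Lrp5 and Lrp6, which carry the Wnt signal across the membrane with Frizzled, differed in their contrast between the tissues. Lrp5 had 2.85, 2.06 and 3.37 CPM in E14.5 fiber, 2.38, 1.66 and 1.96 in E16.5 fiber, 3.54, 2.26 and 2.69 in E18.5 fiber and 1.39, 2.39 and 1.99 in P0.5 fiber. In epithelium it had 19.9, 15.9 and 19.3 CPM in E14.5 epithelium, 9.15, 12.8 and 15.6 in E16.5 epithelium, 30.1, 29.6 and 37.7 in E18.5 epithelium and 29.9, 30.0 and 25.5 in P0.5 epithelium, with no overlap (log2 -3.17 ± 0.10 SE, edgeR adjusted p = 3.90e-19). Lrp6 did not pass, with 172 to 206, median 190.3 CPM in fiber and 162 to 202, median 184 CPM in epithelium (0.07). Per kilobase Lrp6 was the higher of the pair in every group, at 15.01 against 0.283 CPM per kb in E14.5 fiber and 14.1 against 1.89 CPM per kb in E14.5 epithelium. The receptor kinase gene Ror1 was lower in fiber, at 32.2 to 84.7, median 52.9 CPM against 127 to 189, median 158 CPM in epithelium (log2 -1.56 ± 0.04 SE, edgeR adjusted p = 1.61e-21). Ror2, a Wnt5a receptor, did not exceed 0.958 CPM in any fiber library, and its epithelium values depended on stage.

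The secreted antagonists split between the tissues, with 2 higher and 5 lower in fiber, against 15.7% and 22.2% of all genes. With library size only 1 was higher and 5 were lower, against 587 and 7423 of all 12427 genes. Dkk3, a Dickkopf relative whose effect on Wnt signalling varies between settings, was the most abundant member in fiber from E16.5 on, per kilobase. It had 1194, 1303 and 1229.8 CPM in E14.5 fiber, 1584, 1556 and 1627 in E16.5 fiber, 2622, 2786 and 2846 in E18.5 fiber and 2988, 2799 and 3215 in P0.5 fiber. Its epithelium values were 135, 153 and 162 CPM in E14.5 epithelium, 204, 229 and 224 in E16.5 epithelium, 395, 411 and 499 in E18.5 epithelium and 561, 559.9 and 499 in P0.5 epithelium, all below the fiber libraries (log2 2.76 ± 0.04 SE, edgeR adjusted p = 4.37e-25). Sfrp1, which binds Wnts and Frizzleds outside the cell, ranged over 1676 to 2475, median 2088 CPM in fiber and 532 to 839.6, median 763 CPM in epithelium (log2 1.51 ± 0.03 SE, edgeR adjusted p = 1.38e-23; 0.30 with library size only, no longer passing).

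Sfrp2, of the same family as Sfrp1, was lower in fiber, and its mean was lower at each later stage in both tissues. It had 31.2, 14.1 and 24.8 CPM in E14.5 fiber, 5.46, 3.24 and 5.70 in E16.5 fiber, 0.950, 1.06 and 1.23 in E18.5 fiber and 0.380, 0.958 and 0.315 in P0.5 fiber. In epithelium it had 415, 271 and 504 CPM in E14.5 epithelium, 52.2, 47.3 and 66.0 in E16.5 epithelium, 14.3, 15.3 and 20.3 in E18.5 epithelium and 9.86, 10.8 and 4.96 in P0.5 epithelium. Fiber lay below epithelium at every stage, although E14.5 fiber lay above P0.5 epithelium and overlapped E18.5 epithelium (averaged log2 -3.83 ± 0.20 SE, edgeR adjusted p = 4.75e-15). Apcdd1, a membrane-bound inhibitor and common beta-catenin target, ranged over 0.166 to 1.49, median 0.691 CPM in fiber and 2.52 to 39.1, median 17.9 CPM in epithelium (log2 -4.38 ± 0.21 SE, edgeR adjusted p = 5.80e-16). Dkk1, Dkk2 and Wif1, inhibitors that bind Lrp5 and Lrp6 (Dkk1, Dkk2) or Wnts (Wif1), were close to 0 in fiber. Dkk1 had no count in E18.5 fiber and 155 counts in E18.5 epithelium, which makes it at least 41.8-fold lower in fiber against 3 counts over the group, counting error only. Wif1 had 1 count in P0.5 fiber and 408 in P0.5 epithelium, a scaled ratio of 248 in favour of epithelium (95% counting interval 44.3 to 9825).

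The R-spondin axis, which removes Znrf3 from the membrane and so raises receptor levels, held the largest difference towards fiber among the members. Rspo1 had 114, 124 and 126 CPM in E14.5 fiber, 129, 132 and 133 in E16.5 fiber, 137, 115 and 137 in E18.5 fiber and 143, 139.6 and 134 in P0.5 fiber. In epithelium it had 4.51, 4.14 and 6.24 CPM in E14.5 epithelium, 4.34, 7.33 and 4.42 in E16.5 epithelium, 2.99, 2.72 and 4.73 in E18.5 epithelium and 3.61, 5.45 and 6.84 in P0.5 epithelium. The tissues were far apart in every library (log2 4.77 ± 0.08 SE, 27.3-fold, edgeR adjusted p = 1.98e-24). Lgr4, its receptor, did not pass on average (-0.34), with 257 CPM in E14.5 fiber against 193 in E14.5 epithelium and 173 CPM in P0.5 fiber against 313 in P0.5 epithelium. Znrf3, the ubiquitin ligase that clears Frizzled, was lower in fiber, at 19.4 to 26.1, median 21.9 CPM against 51.9 to 77.1, median 60.8 CPM in epithelium (log2 -1.48 ± 0.04 SE, edgeR adjusted p = 2.24e-20). Rspo1 lies at chromosome 4, 124986430 to 125009099 on GRCm38, Wnt7a at chromosome 6, 91363981 to 91411363, and both are protein-coding.

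Of the 8 cytoplasmic members 3 were lower in fiber, against 22.2% of all genes, and 5 did not pass. With library size only 6 were lower, against 7423 of all 12427 genes. Ctnnb1, the gene of beta-catenin, had 634 to 896, median 815 CPM in fiber and 534 to 638, median 595 CPM in epithelium (0.42), and Dvl1 (-0.12), Dvl3 (0.20), Axin1 (0.36) and Nkd1 (-0.47) did not pass either. Dvl2, a Dishevelled gene, was lower in fiber (-1.12; at E16.5 it no longer passed without E16.5 fiber replicate 3, at -0.97). Of the feedback genes, Axin2, a scaffold of the beta-catenin destruction complex that the pathway itself induces, had 9.88, 8.41 and 8.599 CPM in E14.5 fiber, 9.52, 10.1 and 9.71 in E16.5 fiber, 13.3, 11.97 and 12.1 in E18.5 fiber and 13.2, 10.9 and 16.48 in P0.5 fiber. In epithelium Axin2 had 45.3, 39.2 and 44.9 CPM in E14.5 epithelium, 40.9, 41.5 and 38.3 in E16.5 epithelium, 56.6, 59.0 and 54.2 in E18.5 epithelium and 53.5, 45.5 and 44.6 in P0.5 epithelium, above every fiber library (log2 -2.08 ± 0.05 SE, edgeR adjusted p = 3.17e-21). Nkd2, which binds Dishevelled, did not exceed 1.60 CPM in any fiber library and ranged over 1.24 to 70.9 CPM in epithelium (log2 -4.77 ± 0.32 SE, edgeR adjusted p = 7.39e-13).

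Among the TCF/LEF factors, Lef1, Tcf7 and Tcf7l1 were lower in fiber and Tcf7l2 did not pass. Lef1 had 0.398, 0.561 and 0.422 CPM in E14.5 fiber, 1.19, 0.0831 and 0.0934 in E16.5 fiber, 0.863, 1.86 and 0.999 in E18.5 fiber and 0.253, 0.718 and 0.210 in P0.5 fiber. In epithelium it had 9.02, 8.76 and 8.401 CPM in E14.5 epithelium, 6.20, 6.81 and 11.5 in E16.5 epithelium, 40.7, 39.1 and 41.8 in E18.5 epithelium and 29.5, 26.8 and 27.1 in P0.5 epithelium, above every fiber library (log2 -4.89 ± 0.17 SE, edgeR adjusted p = 1.98e-18). E16.5 fiber replicate 1, the E16.5 fiber library with the most Lef1, differed from the other replicates in several marker sums. It was the highest in endothelium (38.6, 18.0 and 17.9 CPM in replicates 1 to 3), lens epithelium (262, 233 and 240 CPM) and mural cell markers (54.0, 34.4 and 35.6 CPM). The macrophage and ciliary margin sums were also highest in it. It was the lowest in mesenchyme (13.3, 20.0 and 20.4 CPM), red cell (2.78, 8.56 and 4.86 CPM), pigment cell and cornea markers. The part of these cells was not tested. Tcf7 ranged over 5.35 to 9.68, median 6.20 CPM in fiber and 19.8 to 38.0, median 27.7 CPM in epithelium (-2.02), and Tcf7l1, mainly a repressor, over 13.4 to 20.8, median 16.54 CPM in fiber and 37.6 to 51.0, median 46.5 CPM in epithelium (-1.42). Tcf7l2 had 27.9 to 61.3, median 36.1 CPM in fiber and 22.4 to 31.9, median 24.8 CPM in epithelium (0.60). As a share of the 4 factors per kilobase it made up 43.7% ± 2.63 in E14.5 fiber and 36.6% ± 1.48 in P0.5 fiber, its epithelium share being 12.5% ± 0.566 at E14.5 and 9.76% ± 0.597 at P0.5 (SD, n = 3 each).

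Vangl1 and Vangl2, membrane proteins of the planar polarity core, differed in direction. Vangl1 had 12.1, 12.99 and 11.7 CPM in E14.5 fiber, 11.9, 12.9 and 12.98 in E16.5 fiber, 17.5, 25.5 and 20.7 in E18.5 fiber and 16.7, 15.1 and 14.4 in P0.5 fiber. In epithelium it had 4.91, 5.11 and 4.74 CPM in E14.5 epithelium, 4.34, 4.54 and 6.75 in E16.5 epithelium, 10.9, 9.85 and 12.4 in E18.5 epithelium and 9.86, 9.16 and 10.4 in P0.5 epithelium (log2 1.04 ± 0.07 SE, edgeR adjusted p = 8.76e-13). It was higher in fiber with TMM scaling, passing at E14.5 and E16.5 but not at E18.5 (0.93) or P0.5 (0.65), and changed sign to -0.17 with library size only. Vangl2 ranged over 16.52 to 21.6, median 18.3 CPM in fiber and 56.8 to 75.1, median 66.4 CPM in epithelium, without overlap (log2 -1.81 ± 0.03 SE, edgeR adjusted p = 5.00e-24). Of 14 other planar polarity and beta-catenin-independent genes in the table, 6 were higher and 4 lower in fiber, against 15.7% and 22.2% of all genes. With library size only 1 (Prickle1) was higher and 6 were lower, against 587 and 7423 of all 12427 genes. Prickle1, a cytoplasmic partner of Vangl proteins (3.28), Celsr1, a seven-pass cadherin (2.05), and the small GTPase gene Rac1 (1.67) had the largest differences towards fiber. The formin-like Daam2 (-3.09) and Daam1 (-1.19) were among the lower ones. With library size only, Daam2 (-4.30), Prickle3 (-3.16), Prickle2 (-2.63) and Daam1 (-2.40) were the lowest, so the Prickle genes differed in direction. Prickle1 averaged 106 ± 5.40 CPM in E14.5 fiber against 15.3 ± 0.431 in E14.5 epithelium and 305 ± 41.7 CPM in P0.5 fiber against 26.3 ± 1.16 in P0.5 epithelium (SD, n = 3 each).

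Of 12 other genes for Wnt secretion and extracellular handling, 7 were lower in fiber, against 22.2% of all genes, and 5 did not pass. With library size only all 12 were lower, against 7423 of all 12427 genes. Wls, the carrier that takes Wnts to the cell surface, did not pass on average with TMM scaling (-0.97). The glypican genes Gpc4 (-3.59) and Gpc6 (-2.67) and Notum (-4.28), whose enzyme inactivates Wnts, were among the lower ones. Of 21 destruction complex and nuclear partners 4 were lower, near the 22.2% of all genes, and 17 did not pass. With library size only 13 were lower, against the same 7423 of all 12427 genes. With TMM scaling the lower ones included Bcl9l (-2.81) and Bcl9 (-1.17), co-activators of beta-catenin. With library size only the lowest of the 21 were Bcl9l (-4.01), Tle2 (-3.61), Tle1 (-2.58) and Bcl9 (-2.37). Of 12 target and feedback genes 10 were lower, against 22.2% of all genes, and 2 did not pass. With library size only all 12 were lower, against 7423 of all 12427 genes. Axin2, Lef1, Tcf7, Nkd1, Apcdd1, Znrf3 and Dkk1 in this list are members already counted above. All of these members but Nkd1 passed. Of the other genes in the list, Notum, also counted with the extracellular genes, Myc (-4.02) and the cyclin gene Ccnd1 (-1.08) were among those that passed. The lists and the members were chosen with earlier results of these data known, so their counts are a description.

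The earliest and latest stages show how the pathway changed as the lens grew, P0.5 being set against E14.5. In epithelium 13 members rose, against 10.1% of all genes, and 5 fell, against 3.21% of all genes; the median log2 difference was 0.39 over members and 0.01 over all genes. Nkd2 had 61.3, 56.4 and 42.4 CPM in P0.5 epithelium and 2.53, 2.76 and 1.86 CPM in E14.5 epithelium (log2 4.49 ± 0.36 SE, edgeR adjusted p = 3.25e-10). Ror2 had 15.3, 14.2 and 14.9 CPM in P0.5 epithelium and 1.11, 1.45 and 1.08 CPM in E14.5 epithelium (3.60). Both groups of 3 were far apart in each gene. Apcdd1 had 38.4, 30.9 and 39.1 CPM in P0.5 epithelium and 3.48, 7.32 and 2.52 CPM in E14.5 epithelium (3.03), Dkk3 561, 559.9 and 499 CPM in P0.5 epithelium and 135, 153 and 162 CPM in E14.5 epithelium (1.85). Lef1 rose by 3.19-fold, Fzd8 by 4.44-fold, Fzd5 by 3.11-fold, Fzd6 by 2.82-fold and Fzd1 by 2.36-fold. Wif1 (3.41), Wnt2b (3.83) and Wnt9a (1.01) rose at levels of at most 10.6 CPM, as did Wnt16, with 299 counts in P0.5 epithelium and 3 in E14.5 epithelium, a scaled ratio of 88.6 (95% counting interval 30.0 to 432). Wnt9a no longer passed without E14.5 epithelium replicate 3 (0.91) or P0.5 epithelium replicate 3 (0.89).

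Sfrp2 fell most in epithelium, with 9.86, 10.8 and 4.96 CPM in P0.5 epithelium against 415, 271 and 504 CPM in E14.5 epithelium (log2 -5.55 ± 0.27 SE, edgeR adjusted p = 1.02e-13). Fzd3 fell to 152 ± 11.0 CPM in P0.5 epithelium, against 322 ± 7.22 CPM in E14.5 epithelium (SD, n = 3 each; -1.08), and Fzd7 to 77.0 ± 5.02 CPM in P0.5 epithelium, against 156 ± 12.9 CPM in E14.5 epithelium (-1.02). Both differences were close to 2-fold. With library size only neither passed (Fzd3 -0.99, Fzd7 -0.93), and Fzd7 did not pass without E14.5 epithelium replicate 3 (-0.95) or P0.5 epithelium replicate 2 (-0.97). Fzd10 (-2.25) and Dkk2 (-1.32) fell at low levels. Axin2 (0.15) and Tcf7 (0.11) did not pass. In the same comparison 6 of 7 mesenchyme markers fell, summing to 34.3, 28.1 and 25.4 CPM in P0.5 epithelium against 165, 111 and 107 CPM in E14.5 epithelium, and all 4 red cell markers fell, while all 6 ciliary margin, 7 of 8 pigment cell and 7 of 9 retina markers rose; their part in these changes was not tested.

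In fiber 4 members rose, against 6.69% of all genes, and 5 fell, against 5.24% of all genes. With library size only, 0 rose and 12 fell, against 367 and 2168 of all 12427 genes. Wnt7a had 199.5, 185 and 206 CPM in P0.5 fiber and 61.9, 76.7 and 67.9 CPM in E14.5 fiber (log2 1.52 ± 0.10 SE, edgeR adjusted p = 6.56e-12). Wnt7b had 898, 853 and 940.4 CPM in P0.5 fiber and 384, 427 and 363 CPM in E14.5 fiber (1.197). Fzd6 had 93.8, 83.5 and 66.6 CPM in P0.5 fiber and 31.7, 30.1 and 25.1 CPM in E14.5 fiber (1.48), and Dkk3 averaged 3001 ± 208 CPM in P0.5 fiber and 1242 ± 55.3 CPM in E14.5 fiber (1.27). The groups did not overlap in any of the 4. All 4 kept their sign but none passed with library size only (Wnt7a 0.97, Fzd6 0.94, Dkk3 0.72, Wnt7b 0.65), a scaling under which the median of all genes in this comparison was -0.56.

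Sfrp2 fell in fiber too, with 0.380, 0.958 and 0.315 CPM in P0.5 fiber against 31.2, 14.1 and 24.8 CPM in E14.5 fiber (log2 -5.29 ± 0.52 SE, edgeR adjusted p = 1.24e-08). Fzd3 had 193, 199.8 and 186 CPM in P0.5 fiber and 511, 497 and 511 CPM in E14.5 fiber (-1.39), and Ror1 35.8, 36.9 and 32.2 CPM in P0.5 fiber and 76.9, 71.4 and 84.7 CPM in E14.5 fiber (-1.15). The stages were separate in all 3. Nkd1 (-1.13) fell to 18.6, 19.8 and 35.4 CPM in P0.5 fiber, against 48.5, 58.6 and 55.0 CPM in E14.5 fiber, and no longer passed without P0.5 fiber replicate 1 (-0.99) or replicate 2 (-0.98). Dkk2 fell to 1 count in P0.5 fiber against 15 in E14.5 fiber, a scaled ratio of 11.9 in favour of E14.5 (95% counting interval 1.84 to 502). Outside the family, Wls averaged 109 ± 30.9 CPM in P0.5 fiber and 24.9 ± 1.86 CPM in E14.5 fiber (SD, n = 3 each; 2.13). Among markers, all 4 red cell and 4 of 7 mesenchyme markers fell in fiber and 2 of 6 ciliary margin markers rose, and their part was not tested.

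**Figure D4:**
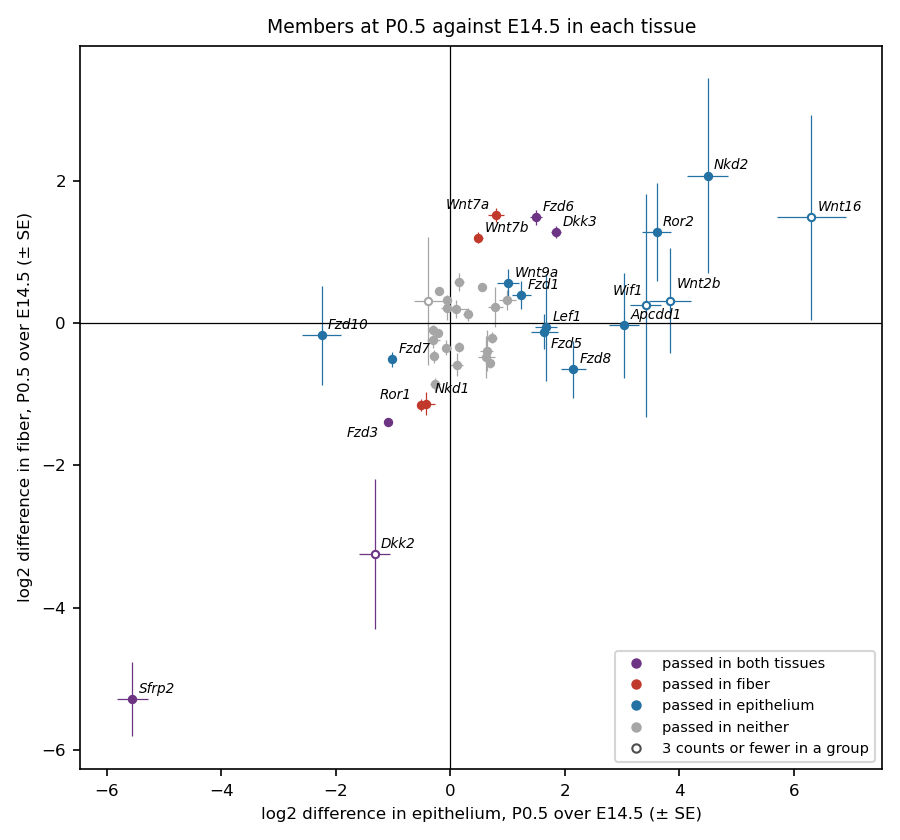
Each point is 1 of the 44 members, with its log2 difference P0.5 over E14.5 in epithelium on the horizontal axis and in fiber on the vertical axis, each ± SE; colours give the tissue in which it passed, and open points have 3 or fewer counts in a group. Sfrp2 lies at -5.55 in epithelium and -5.29 in fiber, and Nkd2, Ror2, Apcdd1 and Lef1 passed in epithelium; the difference between the tissues passed for Ror2 and Apcdd1 but not for Nkd2 (-2.42) or Lef1 (-1.74). The 4 members that rose in fiber pass with TMM scaling but not with library size only.

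E18.5 against E16.5 was compared as the step in which markers beside the lens also moved. In epithelium 11 members rose, against 6.75% of all genes, and 1 fell, against 0.547% of all genes. Ror2 had 17.1, 14.53 and 20.95 CPM in E18.5 epithelium and 0.465, 0.873 and 1.87 CPM in E16.5 epithelium (log2 4.03 ± 0.26 SE, edgeR adjusted p = 4.11e-11). Nkd2 had 55.3, 54.54 and 70.9 CPM in E18.5 epithelium and 1.24, 3.73 and 10.4 CPM in E16.5 epithelium (3.57), and Lef1 40.7, 39.1 and 41.8 CPM in E18.5 epithelium and 6.20, 6.81 and 11.5 CPM in E16.5 epithelium (2.31). The stages were separate in each. Wif1 had 10.3, 8.92 and 11.3 CPM in E18.5 epithelium and 0.775, 1.46 and 1.42 CPM in E16.5 epithelium (3.03), and Fzd5 22.9, 24.9 and 47.4 CPM in E18.5 epithelium and 7.44, 8.03 and 14.1 CPM in E16.5 epithelium (1.69). Fzd8 (1.94), Lrp5 (1.37), Wnt16 (5.37) and Wnt2b (4.83) also rose. Vangl1 (1.09) and Apcdd1 (1.01) rose by just over 2-fold. Vangl1 did not pass without E16.5 epithelium replicate 1 (0.99) or 2 (0.99); Apcdd1 did not pass without any one of E16.5 epithelium replicates 1 (0.92) or 3 (0.997) or E18.5 epithelium replicates 1 (0.89) or 2 (0.93). Sfrp2 fell (-1.73), with 14.3, 15.3 and 20.3 CPM in E18.5 epithelium against 52.2, 47.3 and 66.0 CPM in E16.5 epithelium.

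Markers of tissue beside the lens moved in the same step. All 6 ciliary margin markers rose, summing to 429, 429 and 541 CPM in E18.5 epithelium against 11.0, 27.7 and 58.3 CPM in E16.5 epithelium in replicates 1 to 3. Of the 8 pigment cell markers 7 rose, summing to 248, 233 and 268 CPM in E18.5 epithelium against 37.2, 42.7 and 41.1 CPM in E16.5 epithelium, and of the 9 retina markers 7 rose, summing to 155, 170.4 and 228 CPM in E18.5 epithelium against 23.4, 28.7 and 47.5 CPM in E16.5 epithelium. None of these markers was at 0 in any epithelium group. Of the 7 mural cell markers 3 rose, summing to 494, 499 and 419 CPM in E18.5 epithelium against 324, 299 and 320.0 CPM in E16.5 epithelium. Of the 10 endothelium markers 3 rose, of 8 macrophage markers 2 rose and 1 fell, of 2 cornea markers 1 rose (18.2 to 19.0 CPM in E18.5 epithelium against 8.91 to 11.2 CPM in E16.5 epithelium for both), and of the 5 lens epithelium markers 1 rose. Of 4 red cell markers 3 fell, and of 7 mesenchyme markers 3 fell. Within E16.5 epithelium, replicate 3 had the highest ciliary margin sum, and it was also the highest of the 3 in 7 of the 11 members that rose (Nkd2, Ror2, Fzd5, Lef1, Lrp5, Vangl1 and Wnt2b), while replicate 2 was the highest in Apcdd1, Fzd8, Wif1 and Wnt16. Replicate 1 was the lowest in the ciliary margin sum and in all 11 members. The 11 were called from these same libraries, and the share of all genes with that order was not counted. The order is therefore a description only. The part of these markers' cells in the members' rise was not tested. Axin2 did not pass in this step (0.49), with 56.6, 59.0 and 54.2 CPM in E18.5 epithelium against 40.9, 41.5 and 38.3 CPM in E16.5 epithelium.

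**Figure D5:**
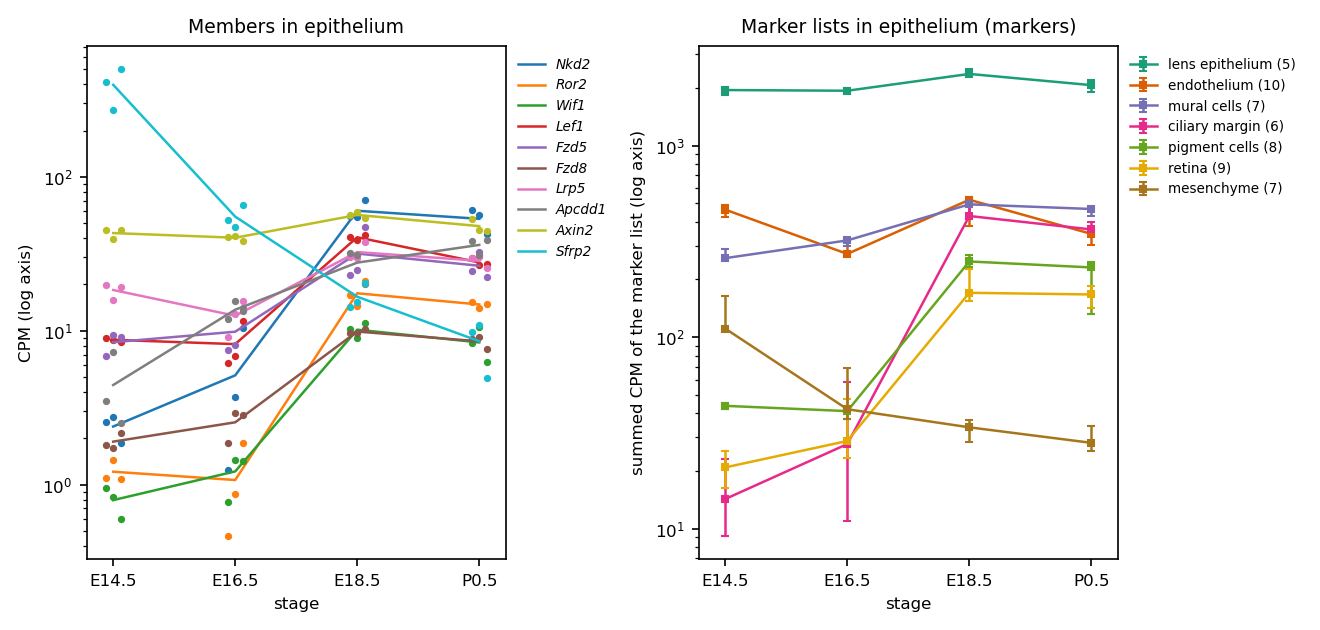
Left, CPM on a log axis of 10 members in epithelium at 4 stages, points being single libraries and lines joining means of 3; right, the summed CPM on a log axis of 7 marker lists in the same libraries, squares being the median of 3 and bars the range. Nkd2, Ror2, Wif1, Lef1, Fzd5, Fzd8 and Lrp5 step up between E16.5 and E18.5, as the ciliary margin, pigment cell and retina sums do, while the mean of Sfrp2 is lower at each later stage. The lens epithelium sum lies between 1849 and 2517 CPM over the 4 stages. It is 1892 to 1993 CPM at E16.5 and 2355 to 2517 CPM at E18.5, without overlap.

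In fiber the same step held 0 members higher, against 1.91% of all genes, and 1 lower, against 0.724% of all genes, by edgeR. At an unadjusted p under 0.05 there were 11 higher and 6 lower, and DESeq2 called 1 member higher, Lef1. Lef1 had 0.863, 1.86 and 0.999 CPM in E18.5 fiber and 1.19, 0.0831 and 0.0934 CPM in E16.5 fiber (1.42, edgeR adjusted p = 0.103), and it passed without E16.5 fiber replicate 1 (3.58). Sfrp2 had 0.950, 1.06 and 1.23 CPM in E18.5 fiber and 5.46, 3.24 and 5.70 CPM in E16.5 fiber (log2 -2.11 ± 0.61 SE, edgeR adjusted p = 0.0153). It did not pass without E16.5 fiber replicate 3 (adjusted p = 0.0544 by edgeR) or E18.5 fiber replicate 1 (adjusted p = 0.053 by edgeR).

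The interaction tests whether the P0.5 against E14.5 change differed between the tissues, counted as fiber minus epithelium. It passed for 1 member in the positive direction, against 3.77% of all genes, and for 8 in the negative direction, against 7.92% of all genes. With library size only the counts were 0 and 22, against 138 and 3260 of all 12427 genes. The clearest at a high level was Lgr4, with 176, 182 and 161 CPM in P0.5 fiber and 252, 250.1 and 268 CPM in E14.5 fiber, against 334, 317 and 287 CPM in P0.5 epithelium and 179.9, 207 and 192 CPM in E14.5 epithelium (interaction log2 -1.26 ± 0.10 SE, edgeR adjusted p = 1.26e-09). In fiber every P0.5 library lay below every E14.5 library, and in epithelium every P0.5 library lay above. Wnt2b (-3.52), Apcdd1 (-3.07), Fzd8 (-2.80), Ror2 (-2.32), Fzd5 (-1.76), Lrp5 (-1.11) and Fzd2 (-1.02) passed in the same direction. Fzd10 passed in the other (2.08, edgeR adjusted p = 0.0489), but no longer without any one of 8 of the 12 libraries (1.68 to 2.13, edgeR adjusted p = 0.0547 to 0.195), nor with the replicate block (2.06, edgeR adjusted p = 0.0628) or library size only (1.47). Ror2 no longer passed without E14.5 fiber replicate 1 (-2.07) or 3 (-2.19), P0.5 fiber replicate 1 (-1.97) or 3 (-2.08), or E14.5 epithelium replicate 3 (-2.23). Lrp5 no longer passed without E14.5 fiber replicate 3 (-0.96) or P0.5 fiber replicate 1 (-0.96), and Fzd2 without any one of 6 libraries (-0.999 to -0.820). For the fiber increase of Wnt7a (1.52, 0.80 in epithelium) and of Wnt7b (1.197, 0.49 in epithelium) the interaction was 0.72 ± 0.17 SE and 0.71 ± 0.11 SE, under 2-fold.

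Set in order of level per kilobase, Dkk3 and Sfrp1 led in P0.5 fiber at 893 and 554 CPM per kb, followed by Wnt7b (183), Ctnnb1 (171), Rspo1 (71.7) and Wnt7a (62.0). In P0.5 epithelium Sfrp1 (190.5 CPM per kb), Dkk3 (161) and Ctnnb1 (104) led, followed by Lgr4 (53.1), Fzd1 (50.7) and Wnt7b (45.2). In E14.5 fiber the order was Sfrp1 (391.98 CPM per kb), Dkk3 (369.8) and Ctnnb1 (126), and in E14.5 epithelium Sfrp2 (184 CPM per kb) led, ahead of Sfrp1 (129.6), Ctnnb1 (118) and Dkk3 (44.6). The scale divides CPM by the length of the union of annotated exons, so genes with long alternative ends rank low. Exons of 6 members overlap a gene on the other strand over more than 5% of their bases (Dvl2 18.3%, Fzd5 17.8%, Sfrp2 16.1%, Ctnnb1 14.6%, Lef1 13.7%, Wnt7b 6.61%), and no source states the strand setting of the counting, so reads of the pairs may be shared.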

How the data were processed

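Total RNA was measured in 24 libraries, 3 from each of 2 tissues at 4 stages. Per the submitters' processing notes, the build was mm10 and the tools were Trim Galore 0.4.1 and TopHat2 2.0.13, besides HTSeq 0.6.1, Cufflinks 2.2.1 and Cuffdiff. The deposited table holds raw counts per gene for each library, with no normalization by the authors evident in the values. How its 12611 rows were selected and the strand setting of the counting are not given in the sources used here. No columns of other samples were present.

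From these counts, genes with too few reads were removed with edgeR's filterByExpr (minimum count 10, minimum total 15), which took away 184 genes and none of the members. A quasi-likelihood model of 8 group means was fitted to 12427 genes with TMM scaling (R 4.3.3, edgeR 4.0.16, limma 3.58.1), leaving 16 residual degrees of freedom. Contrasts compared fiber with epithelium averaged and by stage, P0.5 with E14.5 and E18.5 with E16.5 in either tissue, and the tissue difference at P0.5 with that at E14.5. A gene was called at a Benjamini-Hochberg adjusted p under 0.05 over all genes tested and a difference of at least 2-fold. The procedure was tested on simulated counts in which few genes differed between groups. That simulation could not test TMM scaling where many genes differ and crystallins fill much of the fiber counts. CPM uses TMM-scaled totals, and CPM per kb divides by GENCODE M21 exon length on GRCm38. Members with a group at 3 or fewer counts have count ratios with 95% exact intervals, which cover counting error only. Marker sums add the CPM of a list.

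The members and all gene lists were chosen with earlier results of these data known. Genes named were those called with the largest differences and a mean of at least 10 CPM in 1 group, members not called with at least 50 CPM, and, for other lists, the largest 3 in each direction; low members and others were described after their values were seen. Alternatives were library size only, DESeq2 size factors, crystallin genes left out, no filter on low counts, the DESeq2 1.42.0 test, a replicate block and leaving out each library.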

Additional observations from a re-analysis of the deposited data

Results flagged for a closer look

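In 9 members the change from E14.5 to P0.5 differed between fiber and epithelium by a test of the difference itself, the edgeR interaction term (fiber minus epithelium, log2). Apcdd1 changed by -0.03 in fiber and by 3.03 in epithelium, a difference of -3.07 ± 0.81 SE (edgeR adjusted p = 0.00407). Wnt2b changed by 0.31 in fiber and by 3.83 in epithelium, a difference of -3.52 ± 0.92 (edgeR adjusted p = 0.00372), at no more than 6.03 CPM in any library. Fzd8 changed by -0.65 in fiber and by 2.15 in epithelium, a difference of -2.80 ± 0.45 (edgeR adjusted p = 2.87e-05). Ror2 changed by 1.28 in fiber and by 3.60 in epithelium, a difference of -2.32 ± 0.87 (edgeR adjusted p = 0.0347). Fzd5 changed by -0.12 in fiber and by 1.64 in epithelium, a difference of -1.76 ± 0.34 (edgeR adjusted p = 0.000253).

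Lgr4 changed by -0.57 in fiber and by 0.70 in epithelium, so that neither change reached 2-fold but the difference did, at -1.26 ± 0.10 (edgeR adjusted p = 1.26e-09). Lrp5 gave -0.48 in fiber and 0.63 in epithelium, a difference of -1.11 ± 0.33 (edgeR adjusted p = 0.00911), and Fzd2 -0.39 in fiber and 0.63 in epithelium, a difference of -1.02 ± 0.31 (edgeR adjusted p = 0.0109). Fzd10 alone went the other way, with -0.17 in fiber and -2.25 in epithelium, a difference of 2.08 ± 0.83 (edgeR adjusted p = 0.0489). That call was lost with the replicate block (2.06, edgeR adjusted p = 0.0628), with library size only (1.47) and without any one of 8 of the 12 libraries. With library size only, the counts in this comparison moved to 0 positive and 22 negative, against 138 and 3260 of all 12427 genes.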

How the results depend on the processing

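Scaling by library size only moved the most counts. Members higher in fiber then numbered 3 on average, 4 at E14.5 and 3 at each later stage. Of all 12427 genes 587, 751 and 526 to 632 were higher in those comparisons. P0.5 against E14.5 gave 3 lower members in epithelium (302 of all genes), and 0 higher and 12 lower in fiber (367 and 2168 of all genes). The interaction gave 0 positive and 22 negative (138 and 3260 of all genes). Vangl1 reversed in the averaged comparison (-0.17). Of 82 results on single named members, 65 kept direction and call under it, 16 kept direction and lost the call, and 1 reversed. All 82 kept both with DESeq2 size factors, without crystallins, without the filter, with the DESeq2 test and with the replicate block. DESeq2's test called 1 member higher at E18.5 against E16.5 in fiber. The causes were not tested.

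Leaving out 1 library in turn left the averaged counts at 7 higher and 25 lower. The other ranges, higher and then lower, were 7 to 9 and 22 to 23 for E14.5. For E16.5 they were 7 to 8 and 22 to 23, for E18.5 6 to 7 and 25 to 26, and for P0.5 5 to 6 and 24 to 25. P0.5 against E14.5 gave 12 to 14 and 4 to 5 in epithelium, and 4 to 5 and 4 to 5 in fiber. E18.5 against E16.5 gave 9 to 12 and 1 to 2 in epithelium, and 0 to 1 and 0 to 1 in fiber. The interaction gave 0 to 1 and 5 to 10. Of 792 named values, 781 kept direction and call and 11 lost the call.

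The replicate block of stage and number gave 0 positive and 8 negative members in the interaction, Fzd10 being lost, and left the tissue counts as they were. For the stage comparisons, terms for the replicate number within each tissue were fitted instead, and those counts also stayed as they were. Residuals of fiber and epithelium libraries with the same number correlated at -0.066 to 0.221 over 12 pairs, and those with other numbers at -0.159 to 0.118 over 24 pairs. Of 12 fiber libraries 7 were closest to their own number, which leaves pairing undecided. The main fit has no block because the labels do not say that a number marks the same animals. Depth limits Dkk1, Dkk2, Wif1, Wnt16 and Wnt2b, which had 3 or fewer counts in at least 1 group.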
